A study of Mus musculus with 12 samples.

Results

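The genes described here are a list of 36 genes of glycolysis and of the response to low oxygen, with Pgk1 left out, measured by RNA sequencing in mouse leukemic cells. Members were taken by symbol; where a symbol had several rows, the row with the highest mean over the 12 libraries was kept, and genes with a mean under 1 FPKM were dropped. FPKM is a level per transcript length: the fragments of a gene for each kilobase of its transcript, scaled to all fragments of the library. All 36 had a row and 35 passed, out of 13169 symbols that passed among 25263. P4ha2 lay just inside the limit (mean 2.44 FPKM) and Eno2 just outside it (mean 0.534 FPKM). P4ha2 passed only through its level in the floxed cells, since its 6 wild type libraries lay between 0.291 and 1.16 FPKM.

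The cells came from adult mouse bone marrow, and all of them carried MLL-AF9 (MA9), a leukemia-driving fusion of a histone methyltransferase gene with AF9. Their Hoxa cluster was either wild type (WT, strain C57BL/6) or flanked by loxP sites, which Cre recombinase cuts out (Hoxa-flox, strain C57BL/6J). They were kept overnight with the cytokines SCF, GM-CSF, IL-6 and IL-3, received a retrovirus with GFP alone or with Cre, and were sorted for strong GFP. WT cells with these viruses are called WT-GFP and WT-Cre. Floxed cells with the control virus are called Hoxa-flox, and with Cre Hoxa-del, with 3 libraries for each of the 4 groups. Genotype, strain and leukemia differ together between the WT and the floxed cells and cannot be told apart. The labels name no number of leukemias or mice and do not say whether replicates were separate cultures, so each p-value measures only the spread between these libraries. In such bulk RNA, fewer cells of a type and less RNA per cell cannot be told apart.

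Glycolysis breaks glucose down to pyruvate in the cytosol; lactate dehydrogenase then turns pyruvate into lactate, or mitochondria burn it. When oxygen is short, prolyl hydroxylases no longer mark the transcription factor HIF-1α for destruction, and HIF-1 raises the genes of glucose uptake, of most glycolytic steps and of pyruvate dehydrogenase kinase. HIF-1 binds short DNA elements with the core ACGTG or GCGTG near its targets. HIF-1α is regulated mainly as a protein, and normal blood stem cells of the bone marrow are known for a strongly glycolytic metabolism.

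The 250 bases before the transcription start were read from the RefSeq promoter table (GRCm38.p6) for the 30 members that it matched, in 48 windows. ACGTG and GCGTG were searched on both strands, so that the palindrome CACGTG counts once on each strand. At least 1 core stood in 28 of the 30 genes (93.3%). The same held for 61.8% of all tested symbols with a window and for 41.5% of all genes of the table. By window the shares were 77.1%, 55.7% and 38.6%. Such a match is a description of the letters and not a binding site. Slc2a3, Bnip3l, Ero1l and Ndrg1 had no window here, and Pgm2 was left out because its symbol has named different genes. The windows of 1 chromosome were also left out of all shares.

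The windows of 4 members are shown, written 5′ to 3′ on the gene's own strand with the cores in capitals. Among all members, Ldha, Bnip3 and Ankrd37 have the windows with the most cores, so those shown are not typical. That of Ldha (chr7:46845554-46845803, plus strand) holds 5 cores, that of Bnip3 (chr7:138909507-138909756, minus strand) 5 and that of Ankrd37 (chr8:45999851-46000100, minus strand) 4. A second window of Ldha (chr7:46846832-46847081), not shown, holds 1. That of Tpi1 (chr6:124814159-124814408, minus strand) holds 0. All 4 genes were higher in the floxed cells, as described below for each. Cores also stood before members that were not: the windows of Pfkfb3, which was lower, hold 3 and 1, and that of Hif1a, which did not pass, holds 3. Aldoc, the member that changed most, holds 1 core in each of its windows.
Ldha: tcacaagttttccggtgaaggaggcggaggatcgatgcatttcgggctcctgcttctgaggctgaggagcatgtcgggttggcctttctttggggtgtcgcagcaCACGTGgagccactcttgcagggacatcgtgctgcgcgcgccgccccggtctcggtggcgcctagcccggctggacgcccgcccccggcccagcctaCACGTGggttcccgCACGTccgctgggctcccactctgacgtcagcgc
Bnip3: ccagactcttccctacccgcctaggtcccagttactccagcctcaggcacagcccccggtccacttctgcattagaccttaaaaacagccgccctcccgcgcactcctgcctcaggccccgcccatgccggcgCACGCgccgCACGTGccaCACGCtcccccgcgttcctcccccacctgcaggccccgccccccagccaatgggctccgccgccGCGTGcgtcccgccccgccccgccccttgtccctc
Ankrd37: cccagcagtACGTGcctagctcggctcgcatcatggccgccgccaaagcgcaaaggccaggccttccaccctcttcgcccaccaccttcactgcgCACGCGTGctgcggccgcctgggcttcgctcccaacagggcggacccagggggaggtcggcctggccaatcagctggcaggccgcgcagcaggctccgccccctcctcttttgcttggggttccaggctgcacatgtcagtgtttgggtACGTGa
Tpi1: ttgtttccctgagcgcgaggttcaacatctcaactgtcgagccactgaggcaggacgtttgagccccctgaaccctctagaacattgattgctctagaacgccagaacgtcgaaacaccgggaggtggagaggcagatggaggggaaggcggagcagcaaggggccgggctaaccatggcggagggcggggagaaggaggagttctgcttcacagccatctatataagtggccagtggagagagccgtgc

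The summed level of the 8 Hoxa genes with a row was 170, 289 and 239 FPKM in the 3 Hoxa-del libraries and 505 to 528 in Hoxa-flox, against 292 to 322 in the 6 WT libraries. It was thus lower in every Hoxa-del library than in every Hoxa-flox library, but not at 0. Estimated depth ran from about 4.36 M fragments (WT-Cre 2) to 20.6 M (WT-GFP 3). Of 10 markers of myeloid leukemia and its progenitors (Kit, Cd34, Mpo and others), 9 reached 1 FPKM in each group. Their levels were not alike, however. Of 9 tested, 3 were higher and 4 lower in Hoxa-flox than in WT-GFP by the test used below, against 13.3% and 13.5% of all symbols. Cd34 was 1.69 to 2.91 FPKM in WT and 55.3 to 75.9 in the floxed libraries, and Kit 3.81 to 5.44 and 24.5 to 38.4. Myb was 462 to 476 and 168 to 246 FPKM, and Mpo 180 to 326 and 3.80 to 407. The 6 floxed libraries fell into sets that cross the 2 viruses. The first principal component of the other 13134 tested genes took 64.4% of the variance of these 6 libraries and set Hoxa-flox 1, Hoxa-flox 2 and Hoxa-del 2 (the first set) apart from Hoxa-flox 3, Hoxa-del 1 and Hoxa-del 3 (the second set). Both sets hold libraries of both viruses, so each comparison with the WT cells is also given by set. Markers of other cells moved with genotype and set. The 8 macrophage markers summed to 210 to 251 FPKM in WT, 126 to 129 in the first set and 38.1 to 47.7 in the second, with C1qc and Marco at 0 in every Hoxa-del library. One of them, Adgre1, went its own way, at 41.1 to 48.2 FPKM in WT, 95.3 to 99.4 in the first set and 29.2 to 42.9 in the second. The 7 markers of mature neutrophils summed to 1250 to 1771 FPKM in WT, to 386, 564 and 578 in the first set, and to 29.3, 250 and 27.0 in Hoxa-flox 3, Hoxa-del 1 and Hoxa-del 3. Most of that sum was Ngp (976 to 1392 FPKM in WT) and Camp. Ly6g and Mmp9 were instead highest in the first set, Ly6g at 17.7 to 30.8 FPKM against 1.28 to 4.03 in WT and Mmp9 at 48.3 to 61.1 against 18.4 to 24.6. The 6 stromal and endothelial markers summed to 11.8 to 13.8 FPKM in WT and 19.0 to 53.8 in the floxed libraries, most of it Pecam1. The 4 megakaryocyte markers summed to 96.7 to 114 FPKM in WT and 1.51 to 6.19 in the floxed libraries. Most of the WT sum was Pf4 (85.4 to 104 FPKM), and Ppbp was 5.22 to 10.6 in WT and 0 to 0.148 in the floxed libraries. Gp9 (0.698 to 2.52 and 0.466 to 2.59 FPKM) and Itga2b (0.0714 to 1.01 and 0.152 to 1.39) overlapped. The 5 markers of mast cells and basophils summed to 3.05 to 4.21 FPKM in WT and 10.6 to 18.7 in the floxed libraries. That difference lay mostly in Gata2, which is also a progenitor gene (0 to 0.128 FPKM in WT and 7.64 to 13.7 in the floxed libraries). Mcpt8 was 1.99 to 3.13 and 1.64 to 4.03 FPKM, Ms4a2 0.623 to 1.60 and 0.195 to 1.07, and Fcer1a was at 0 in all floxed libraries. Erythroid, T cell and B cell markers summed to at most 5.59 FPKM in any library, with Cd3e at 0 in all floxed libraries. The part of these cells in the results below was not tested.

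The first question was whether these genes differ between floxed and WT leukemia under the same virus. With the control virus 17 of the 35 members were higher in Hoxa-flox than in WT-GFP and 2 were lower, by limma with Benjamini-Hochberg adjustment over all 13169 symbols. Over all symbols 13.3% were higher and 13.5% were lower. With Cre 16 members were higher in Hoxa-del than in WT-Cre and 1 was lower, where 13% of all symbols were higher and 14.2% were lower. These comparisons share no library, but they come from the same fit with a shared spread and both set floxed against WT cells, so they are not independent. The median log2 change of FPKM + 1 over the members was 1.04 with the control virus and 0.77 with Cre, against 0.000599 and 0.00375 over all symbols. Without P4ha2, 16 of the other 34 members were higher under the control virus, 15 under Cre, and the medians were 0.91 and 0.71. The genes that passed with both viruses were Slc2a1, Slc16a3, Pfkl, Pfkp, Pfkm, Pgm2, Aldoc, Tpi1, Pgam1, Ldha, Pdk1, Egln1, Egln3, Bnip3, P4ha2 and Ankrd37, all higher, and Pfkfb3, lower. P4ha1 (higher) and Pfkfb4 (lower) passed with the control virus alone. The difference between the viruses was not past the threshold for either gene. The other 16 did not pass in either comparison: Slc2a3, Hk1, Hk2, Gpi1, Aldoa, Gapdh, Eno1, Pkm, Hif1a, Bnip3l, Higd1a, Vegfa, Ero1l, Ndrg1, Kdm3a and Mxi1.

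**Figure D1:**
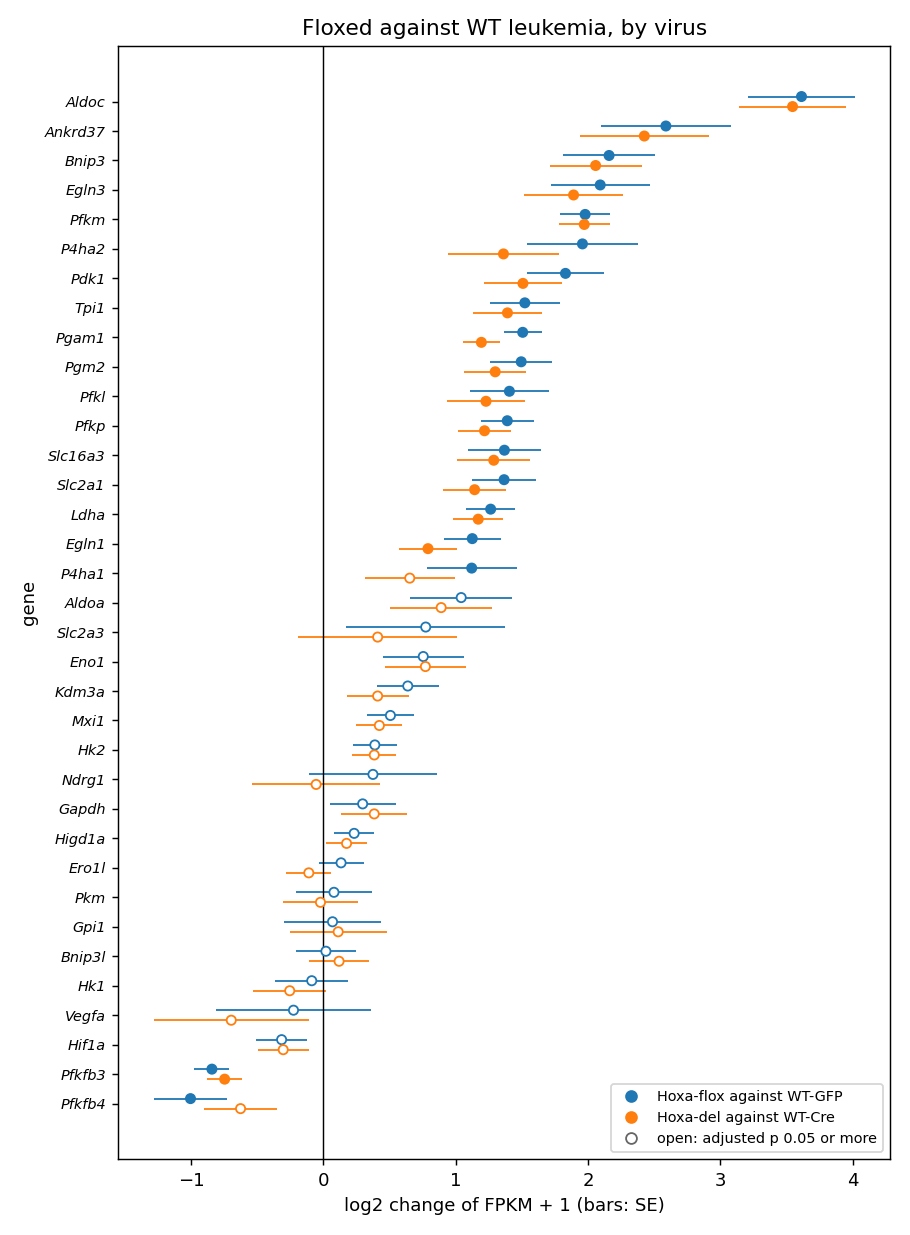
Log2 change of FPKM + 1 (x axis) of the 35 genes (y axis) in Hoxa-flox against WT-GFP (blue) and Hoxa-del against WT-Cre (orange), with bars of 1 standard error from limma on 3 libraries a group and open points for an adjusted p of 0.05 or more. Aldoc lies farthest to the right with both viruses (3.61 and 3.55), and Pfkfb3 and Pfkfb4 lie farthest to the left with the control virus.

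Of the 3 glucose and lactate transporters, 2 rose with both viruses. Slc2a1, the main glucose transporter of growing cells (GLUT1), rose from 15.0 ± 0.685 FPKM with a WT cluster to 41.0 ± 9.57 with a floxed one under the control virus (mean ± SD, n = 3 in every group). Under Cre it rose from 14.1 ± 0.435 to 34 ± 12.8, and the log2 changes were 1.37 and 1.14. Slc16a3, the monocarboxylate transporter that exports lactate, rose from 55.5 ± 4.01 to 147 ± 27.7 FPKM with the control virus and from 51.4 ± 3.21 to 137 ± 69.4 with Cre. Slc2a3, the high-affinity glucose transporter GLUT3, followed the library sets instead. It was 4.20, 3.48 and 3.65 FPKM (WT-GFP), 3.37, 5.81 and 3.63 (WT-Cre), 12.1, 12.4 and 2.08 (Hoxa-flox) and 7.26, 12.4 and 1.92 (Hoxa-del). Hoxa-flox 3 and Hoxa-del 3 lay below every WT library and the other 4 floxed libraries above all of them. The change was 0.77 with the control virus (adjusted p = 0.382, limma).

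Among 7 upper glycolysis enzymes 4 rose with both viruses. Phosphofructokinase, which commits glucose to glycolysis, has liver (Pfkl), platelet (Pfkp) and muscle (Pfkm) genes, and all of these rose. Pfkl was 42.5, 39.2 and 39.3 FPKM (WT-GFP), 34.9, 41.4 and 35.2 (WT-Cre), 131, 135 and 71.7 (Hoxa-flox) and 75, 143 and 63.9 (Hoxa-del). Pfkp was 29.5, 29.0 and 32.2 FPKM (WT-GFP), 29.3, 33.9 and 32.0 (WT-Cre), 89.1, 93.8 and 63.0 (Hoxa-flox) and 70.6, 100 and 59.6 (Hoxa-del). Every floxed library lay above every WT library for both genes, and the first set above the second. Pfkm (GRCm38 chr15:98092589-98132451, plus strand, protein coding) was 1.62, 1.40 and 1.85 FPKM (WT-GFP), 1.14, 1.41 and 1.26 (WT-Cre), 9.23, 8.86 and 9.89 (Hoxa-flox) and 5.77, 10.9 and 7.72 (Hoxa-del). Here the sets overlapped, and Hoxa-flox 3 was the highest of its group. The log2 change of Pfkm was 1.98 with the control virus (SE 0.19, adjusted p = 2.22e-05, limma) and 1.97 with Cre (adjusted p = 2.37e-05). Those of Pfkl were 1.41 and 1.23 and those of Pfkp 1.39 and 1.22. The row named Pgm2, a phosphoglucomutase that links glycolysis with glycogen, changed by 1.5 and 1.30; this symbol has named different genes in different annotations, so which gene the row holds is uncertain.

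Neither Hk1 nor Hk2, hexokinases that trap glucose in the cell as its phosphate, passed in these comparisons. Hk1 was 107, 97.3 and 99.0 FPKM (WT-GFP), 88.2, 91.5 and 86.9 (WT-Cre), 117, 110 and 67.1 (Hoxa-flox) and 59.2, 120 and 57.6 (Hoxa-del). The 6 WT libraries thus lay between the first set and the second. Hk2, the inducible hexokinase, was 27.6, 25.9 and 26 FPKM (WT-GFP), 25.0, 26.2 and 24.4 (WT-Cre), 39.6, 38.5 and 28.1 (Hoxa-flox) and 32.2, 41.0 and 27.6 (Hoxa-del). Its change was 0.39 with each virus (adjusted p = 0.108 and 0.110, limma), and the changes of Hk1 were -0.09 and -0.25. Gpi1, the isomerase of the next step, changed by 0.07 and 0.11. Hk3, a hexokinase of myeloid cells that is no member of the list, was the largest of the 3 in every library. It was 117, 109 and 111 FPKM (WT-GFP), 107, 112 and 98.5 (WT-Cre), 162, 162 and 90.6 (Hoxa-flox) and 94.3, 186 and 86.2 (Hoxa-del), above WT in the first set and below it in the second. It held 46.5% to 48.7% of their summed FPKM in WT and 48.8% to 53.6% in the floxed libraries. The share of Hk1 was 39.9% to 42.5% in WT and 31.9% to 36.6% in the floxed libraries, so that these ranges did not overlap.

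Isoform shares also differed at the other steps. Pfkm held 1.74% to 2.52% of the phosphofructokinase FPKM in WT and 3.72% to 6.84% in the floxed libraries, highest in Hoxa-flox 3. Aldoc held 0.469% to 0.577% of the aldolase FPKM in WT and 3.44% to 4.25% in the floxed libraries, in a narrow range over both sets. Slc2a3 held 18.3% to 28.5% of the FPKM of the pair of glucose transporters in WT and 18.9% to 21.2% in 4 floxed libraries, but 6.48% in Hoxa-flox 3 and 7.79% in Hoxa-del 3. Of the enolase pair Eno1 and Eno2, Eno1 held 99.76% to 99.97%; Eno2 was 0.915, 0.859 and 0.699 FPKM (WT-GFP), 0.462, 0.868 and 0.740 (WT-Cre), 0.452, 0.427 and 0.250 (Hoxa-flox) and 0.249, 0.308 and 0.174 (Hoxa-del). The floxed libraries were all below the WT libraries for this low gene. Eno3, the muscle enolase and no member, was 2.63, 2.22 and 2.97 FPKM (WT-GFP), 2.70, 1.61 and 1.61 (WT-Cre), 3.51, 5.28 and 1.79 (Hoxa-flox) and 4.26, 4.02 and 4.33 (Hoxa-del), so that WT and floxed libraries overlapped.

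**Figure D2:**
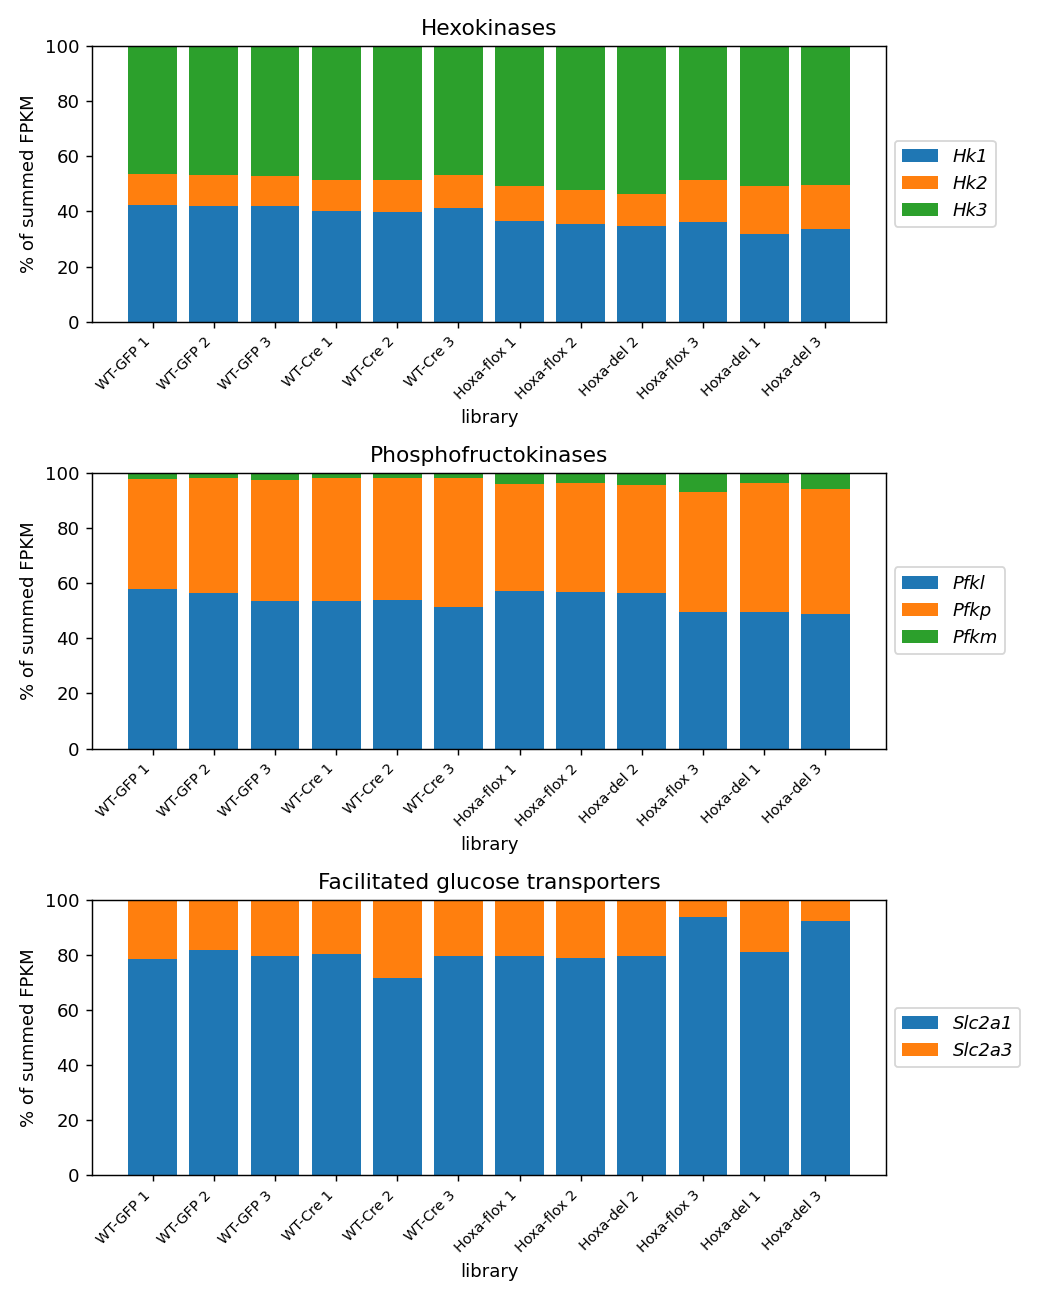
Share of each gene in the summed FPKM of its step (y axis, percent) in each of the 12 libraries (x axis; WT, then the first and the second floxed set) for hexokinases, phosphofructokinases and facilitated glucose transporters. The green Pfkm segment is wider in all 6 floxed libraries, and the orange Slc2a3 segment is narrow in Hoxa-flox 3 and Hoxa-del 3.

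Pfkfb3 and Pfkfb4 make and break fructose 2,6-bisphosphate, the allosteric activator of phosphofructokinase, and were the members lower in the floxed cells. Pfkfb3 was 39.0, 40.5 and 41.9 FPKM (WT-GFP), 41.7, 40.8 and 39.8 (WT-Cre), 25.4, 21.9 and 19.5 (Hoxa-flox) and 27.4, 20.8 and 23.9 (Hoxa-del). Every floxed library lay below every WT library, and the sets overlapped. It fell by 0.84 on the log2 scale with the control virus (SE 0.13, adjusted p = 0.000769, limma) and fell by 0.75 with Cre (adjusted p = 0.00174). The symbol has 4 rows; the mean of the row used was 31.9 FPKM and those of the others 3.16 to 4.14. Pfkfb4 was 15.1, 13.1 and 15.0 FPKM (WT-GFP), 15.6, 10.6 and 12.9 (WT-Cre), 9.46, 8.45 and 3.58 (Hoxa-flox) and 8.27, 9.55 and 6.48 (Hoxa-del). All floxed libraries were below all WT libraries. It fell by 1.0 with the control virus (adjusted p = 0.0209, limma) and changed by -0.63 with Cre (adjusted p = 0.123). The call with the control virus was lost if WT-GFP 1 (adjusted p = 0.0661) or WT-GFP 3 (0.0683) was left out and in a fit of these 2 groups alone (0.0556).

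Aldoc, the brain-type aldolase and a common HIF target, changed most of all members. Aldoc (GRCm38 chr11:78322968-78327781, plus strand, protein coding) was 3.49, 3.60 and 3.50 FPKM in WT-GFP and 2.89, 2.91 and 2.67 in WT-Cre. It was 72.6, 69.8 and 31.7 FPKM in Hoxa-flox and 39.0, 88.0 and 24.0 in Hoxa-del. The lowest floxed library was thus well above the highest WT library, with the first set above the second. Its log2 change was 3.61 with the control virus (SE 0.41, adjusted p = 7.13e-05, limma) and 3.55 with Cre (adjusted p = 8.89e-05). Aldoa, the aldolase that makes up nearly all of the step, went from 647 ± 52.1 to 1408 ± 520 FPKM with the control virus, a change of 1.04 that did not pass (adjusted p = 0.0672, limma). Tpi1, triose phosphate isomerase, rose from 139 ± 13.7 to 411 ± 102 FPKM and, with Cre, from 137 ± 5.79 to 380 ± 155, log2 changes of 1.52 and 1.39.

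Of the 4 members of lower glycolysis that were tested, Pgam1 rose and the other 3 did not pass. Pgam1, phosphoglycerate mutase, rose from 10.4 ± 0.148 to 31.5 ± 3.40 FPKM with the control virus, a log2 change of 1.51 (SE 0.14, adjusted p = 1.89e-05, limma), and by 1.19 with Cre. Eno1, the main enolase, was 508, 393 and 423 FPKM (WT-GFP), 370, 360 and 354 (WT-Cre), 852, 869 and 549 (Hoxa-flox) and 524, 1048 and 430 (Hoxa-del). Every floxed library lay above WT-Cre, but Hoxa-del 3 lay within the range of WT-GFP, and the changes of 0.76 and 0.77 did not pass (adjusted p = 0.0935 and 0.0857, limma). Pkm, pyruvate kinase, was the highest member in WT-GFP at 1306 ± 80.9 FPKM and 1403 ± 299 in Hoxa-flox, a change of 0.08. Gapdh was 22.0 ± 0.889 and 28.1 ± 8.59 FPKM. The rows of Gapdh and Pgam1 are low for these genes, which have many processed copies in the genome; whether their fragments were split among copies was not tested.

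Both enzymes that settle the fate of pyruvate rose. Ldha, a lactate dehydrogenase subunit with 5 cores in the window shown above, was 237, 206 and 217 FPKM (WT-GFP), 205, 200 and 204 (WT-Cre), 559, 560 and 474 (Hoxa-flox) and 417, 617 and 374 (Hoxa-del). The groups of the 2 genotypes did not overlap, and the second set lay closer to the first than for most members. The log2 changes were 1.26 (adjusted p = 0.000504, limma) and 1.17. Pdk1 (GRCm38 chr2:71873224-71903858, plus strand, protein coding), the kinase that switches off pyruvate dehydrogenase, was 14.8, 13.9 and 14.9 FPKM (WT-GFP), 13.0, 13.9 and 14.7 (WT-Cre), 65.5, 64.6 and 37.5 (Hoxa-flox) and 46.0, 61.2 and 24.8 (Hoxa-del). All floxed libraries exceeded all WT libraries. The log2 changes were 1.83 (SE 0.29, adjusted p = 0.000861, limma) and 1.51 (adjusted p = 0.00305).

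**Figure D3:**
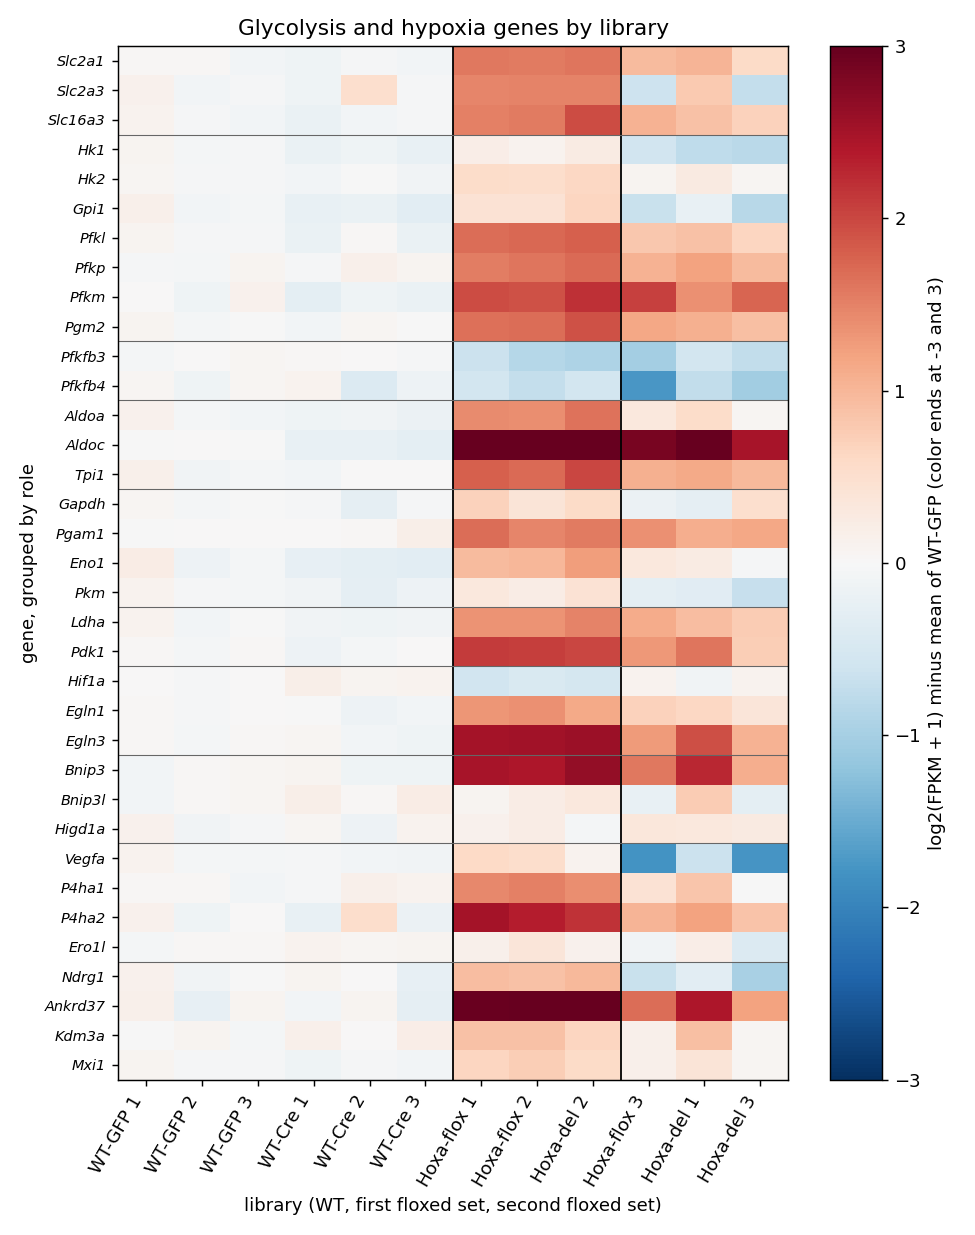
Color gives log2(FPKM + 1) minus the mean of WT-GFP for each of the 35 genes (y axis, grouped by role) in each library (x axis: the 6 WT libraries, then the first and the second floxed set); the color scale ends at -3 and 3. The first set is darker than the second for most genes, and Pfkfb3 and Pfkfb4 are the genes that are blue in all 6 floxed libraries.

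The transcript of Hif1a did not pass in either comparison, while transcripts of both oxygen sensors in the list rose. Hif1a was 59.1, 57.2 and 58.8 FPKM (WT-GFP), 65.6, 62.1 and 63.4 (WT-Cre), 38.6, 42.3 and 62.5 (Hoxa-flox) and 54.2, 40.1 and 62.5 (Hoxa-del). The first set was below every other library and the second within or near the WT range. The changes were -0.32 (adjusted p = 0.263, limma) and -0.30. Egln3 (GRCm38 chr12:54178981-54203860, minus strand, protein coding), a prolyl hydroxylase that is itself a HIF target, was 11.1, 10.2 and 11 FPKM (WT-GFP), 11.2, 10.2 and 9.76 (WT-Cre), 64.9, 66.0 and 27.6 (Hoxa-flox) and 43.7, 68.2 and 23.2 (Hoxa-del). The lowest floxed library was above all WT libraries. Its log2 change was 2.09 with the control virus (SE 0.37, adjusted p = 0.00179, limma) and 1.89 with Cre (adjusted p = 0.00344). Egln1, the main HIF prolyl hydroxylase, rose by 1.13 and 0.79. With Cre the adjusted p of Egln1 was 0.0197 (limma) with all libraries, 0.0630 without WT-Cre 2 and 0.0570 without WT-Cre 3.

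Of 3 mitochondrial hypoxia targets, Bnip3 rose. Bnip3 (GRCm38 chr7:138890836-138909519, minus strand, protein coding), a mitophagy receptor with 5 cores in the window shown above, was 7.47, 8.15 and 8.33 FPKM (WT-GFP), 8.57, 7.19 and 7.25 (WT-Cre), 48.8, 47.2 and 25.9 (Hoxa-flox) and 42.2, 55.2 and 18.2 (Hoxa-del). All floxed libraries were above all WT libraries, and Hoxa-del 1 lay close to the first set. The log2 changes were 2.16 (SE 0.35, adjusted p = 0.000891, limma) and 2.06 (adjusted p = 0.00127). Its relative Bnip3l was 20.2 ± 1.12 FPKM (WT-GFP) and 20.7 ± 3.25 (Hoxa-flox), a change of 0.02. Higd1a, a small protein of the inner mitochondrial membrane, changed by 0.23 and 0.18 and did not pass.

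Secreted, collagen-modifying and folding genes were mixed. P4ha1 and P4ha2 encode the catalytic subunits of the collagen prolyl hydroxylases. P4ha2 (GRCm38 chr11:54100095-54131665, plus strand, protein coding) was 0.636, 0.361 and 0.509 FPKM (WT-GFP), 0.291, 1.16 and 0.326 (WT-Cre), 7.43, 6.72 and 2.03 (Hoxa-flox) and 2.45, 5.70 and 1.71 (Hoxa-del). All floxed libraries were above all WT libraries, with WT-Cre 2 the highest of the WT. It rose by 1.96 with the control virus (SE 0.42, adjusted p = 0.00526, limma) and by 1.36 with Cre (adjusted p = 0.0335). The call with Cre was lost without WT-Cre 1 (adjusted p = 0.107), WT-Cre 3 (0.104), Hoxa-del 1 (0.0504) or Hoxa-del 2 (0.0984). It was lost as well with no filter on low values (0.0634) and in a fit of these 2 groups alone (0.0525). P4ha1 rose by 1.12 with the control virus (adjusted p = 0.0308, limma), a call lost under 7 alternatives. It was lost if any 1 of these was left out: WT-GFP 1 (adjusted p = 0.0742), WT-GFP 2 (0.0785), WT-GFP 3 (0.0906), Hoxa-flox 1 (0.106) or Hoxa-flox 2 (0.112). It was lost as well with no filter on low values (0.0576) and without the first set, which left 1 Hoxa-flox library. With Cre it changed by 0.65 (adjusted p = 0.183).

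Vegfa, the angiogenic growth factor, did not pass in any comparison and varied most between the sets. It was 115, 102 and 102 FPKM (WT-GFP), 103, 101 and 98.0 (WT-Cre), 162, 153 and 29.7 (Hoxa-flox) and 67.1, 114 and 30.7 (Hoxa-del). Hoxa-flox 1 and Hoxa-flox 2 lay above every WT library, Hoxa-del 2 within their range and the second set below all of them. Ero1l, an oxidase of the endoplasmic reticulum, changed by 0.13 and -0.11.

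Of the remaining 4 hypoxia targets Ankrd37 rose. Ankrd37 (GRCm38 chr8:45996902-46005707, minus strand, protein coding), an ankyrin repeat gene with 4 cores in the window shown above, was 2.90, 1.98 and 2.71 FPKM (WT-GFP), 2.33, 2.69 and 1.92 (WT-Cre), 26.2, 29.7 and 10.2 (Hoxa-flox) and 17.7, 35.7 and 7.12 (Hoxa-del). The lowest floxed library was above every WT library. Its log2 change was 2.59 (SE 0.49, adjusted p = 0.00251, limma) with the control virus and 2.43 with Cre (adjusted p = 0.00386). Ndrg1, a stress-induced gene, was 19.1, 16.0 and 17.2 FPKM (WT-GFP), 18.5, 17.6 and 14.4 (WT-Cre), 33.7, 32.9 and 10.5 (Hoxa-flox) and 13.7, 35.3 and 8.34 (Hoxa-del). The first set lay above all WT libraries and the second below all of them. Kdm3a, a histone demethylase, changed by 0.64 and 0.41, and Mxi1, an antagonist of MYC, by 0.51 (adjusted p = 0.0525, limma) and 0.42.

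The second question was what the Cre virus did within each genotype. None of the 35 members passed in Hoxa-del against Hoxa-flox (limma), and 0 had an unadjusted p under 0.05, where 826 of all symbols had one and 4 symbols passed (0.0304%). The median change of the members was -0.22 against -0.06 over all symbols, and 31 members lay below 0. The 3 with the smallest p were Egln1 (-0.42, adjusted p = 0.729, limma), Pgam1 (-0.24) and Pdk1 (-0.38). Egln1 was 38.0, 39.0 and 24.0 FPKM in Hoxa-flox and 22.7, 33.4 and 18.9 in Hoxa-del, against 12.9 to 14.8 in WT. Pgam1 was 35.3, 30.6 and 28.6 FPKM in Hoxa-flox and 23.2, 32.4 and 24.5 in Hoxa-del, against 10.2 to 11.9 in WT. The groups of the floxed cells overlapped for all 3 genes. Hoxa-flox holds 2 libraries of the first set and Hoxa-del 1, and the median differed with the libraries kept. It was 0.08 within the first set and -0.02 within the second, against 0 and -0.06 over all symbols. It was -0.57 without Hoxa-del 2, -0.44 without Hoxa-flox 3, -0.11 without Hoxa-flox 1, -0.09 without Hoxa-flox 2 and -0.003 without Hoxa-del 3. With weights for the quality of each library (array weights), 28 members were called in Hoxa-del against Hoxa-flox, where 39.3% of all symbols were called. The weights were fitted with convergence warnings, so no effect of Cre is read from this count.

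In WT cells 0 members passed between WT-Cre and WT-GFP (limma) and 0 had an unadjusted p under 0.05, where 312 of all symbols had one and 2 symbols passed (0.0152%). The fit shares the spread of all 4 groups, that between the floxed sets included, so it can miss small changes between the WT groups. The median was -0.07 against -0.03 over all symbols. The 3 smallest p-values belonged to Pfkm (-0.21), Eno1 (-0.28) and Gpi1 (-0.25). Gpi1 was 590, 502 and 511 FPKM in WT-GFP and 459, 461 and 426 in WT-Cre, so that WT-Cre lay lower, and 299 to 833 in the floxed libraries. Pfkm overlapped between these groups. Every WT-Cre library lay below every WT-GFP library for Eno1 and Gpi1, and also for Hk1, Aldoa, Aldoc, Pkm and Ldha. For Hif1a and Ero1l every WT-Cre library lay above. The remaining members overlapped, and the share of all symbols without overlap was not computed. Pgk1, the glycolytic gene left out of the list, stands apart from the members here: it was 771 ± 69.2 FPKM (WT-GFP), 174 ± 8.24 (WT-Cre), 2366 ± 498 (Hoxa-flox) and 473 ± 130 (Hoxa-del). It fell by 2.14 on the log2 scale with Cre in WT cells (adjusted p = 0.0168, limma) and fell by 2.33 in floxed cells (adjusted p = 0.00354).

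The test of whether the effect of Cre differed between the genotypes called 0 members (limma), 0 with an unadjusted p under 0.05. Of all symbols 324 had an unadjusted p under 0.05 and 1 passed (0.00759%). The median of the members was -0.15 against -0.02. The smallest p-values were those of Pgam1 (-0.31), Egln1 (-0.34) and Ero1l (-0.24, adjusted p = 0.9997 for all 3). Ero1l was 31.3, 33.5 and 33.9 FPKM (WT-GFP), 35.4, 34.4 and 34.7 (WT-Cre), 36.4, 42.3 and 30.7 (Hoxa-flox) and 37.7, 36.2 and 24.4 (Hoxa-del). Its WT groups differed by little and its floxed groups overlapped. The median was 0.13 with the floxed set as a term in the fit, so its sign differed between these fits. With array weights, fitted with the same warnings, 18 members were called for the interaction, where 26.2% of all symbols were called.

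The third question was how the members divide between the sets of floxed libraries. The sets were read from the values of other genes in the same libraries, so the differences are given with no test. For 27 of 35 members all 3 libraries of the first set lay above all 3 of the second, where this held for 31.7% of all symbols. For 2 members (Hif1a and Higd1a) the first set lay below, where this held for 23.1% of all symbols. Pfkm, Pfkfb3, Gapdh, Bnip3l, Ero1l and Kdm3a overlapped. The median difference in log2(FPKM + 1) was 0.76 over the members and 0.08 over all symbols. The largest differences were those of Vegfa (1.81), Slc2a3 (1.66), Ndrg1 (1.59), Ankrd37 (1.39), P4ha2 (1.31) and Aldoc (1.27). Vegfa averaged 143 FPKM in the first set and 42.5 in the second, Ndrg1 34 and 10.8, and Hif1a 40.3 and 59.7. Thus the first set was higher in most listed targets of HIF and lower in the transcript of Hif1a.

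**Figure D4:**
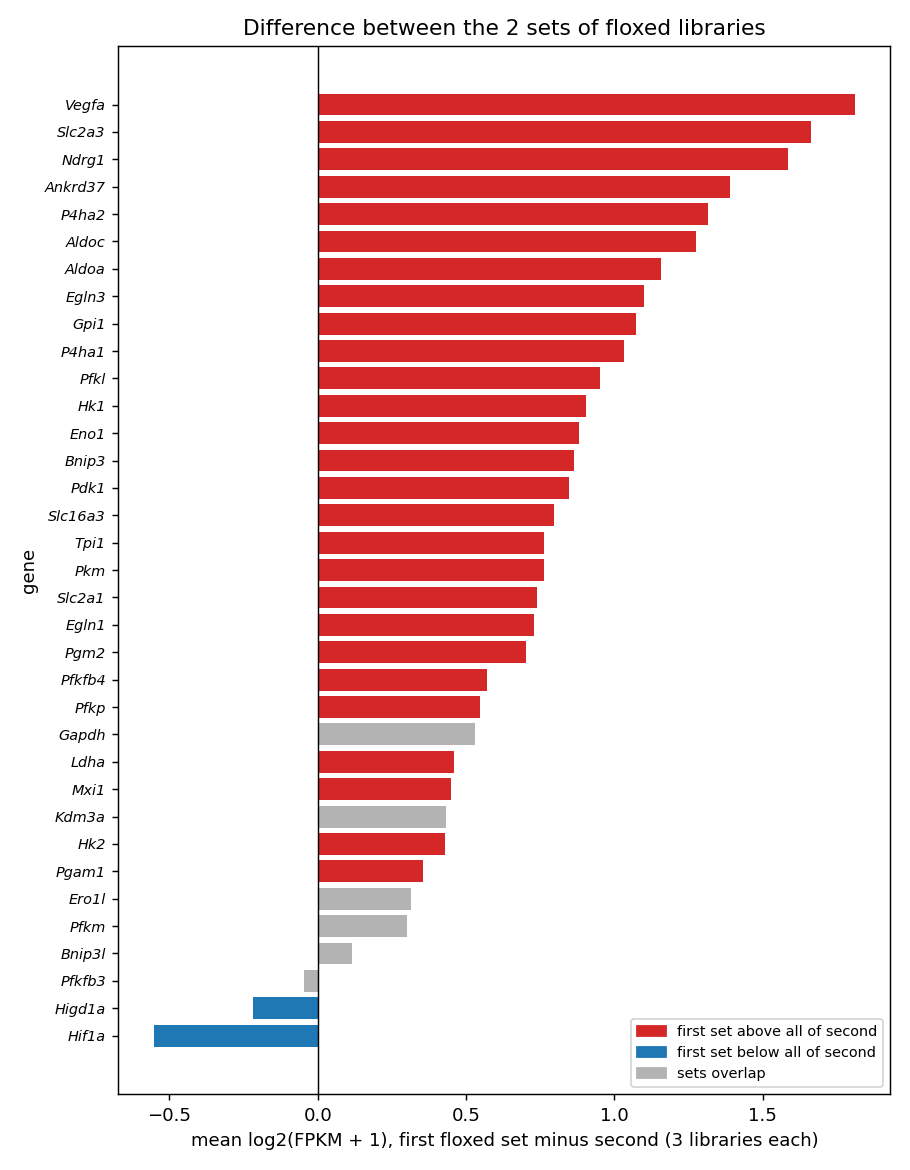
Mean log2(FPKM + 1) of the first floxed set minus that of the second (x axis, 3 libraries each) for each gene (y axis); red marks genes whose 3 first-set libraries all exceed the second set, blue the reverse, and gray an overlap. Of the 35 genes 27 are red, led by Vegfa at 1.81, and Hif1a is lowest at -0.55.

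Set beside the WT cells, the members of the first set stood further from them than those of the second. The median of Hoxa-flox minus WT-GFP was 1.35 in the first set and 0.35 in the second, and that of Hoxa-del minus WT-Cre was 1.38 and 0.39. With the first set alone, limma called 32 members under the control virus and 30 under Cre, where it called 56.2% and 57.3% of all symbols. With all libraries and array weights it called 33 under the control virus, where 69.8% of all symbols were called. With the second set alone it called 21 members under the control virus (42.3% of all symbols) and 23 under Cre (45.3%). In this second-set fit Hoxa-flox counts 1 library, assumed to vary like the other groups, and Hoxa-del counts 2. In the first-set fit Hoxa-del counts 1 library, under the same assumption, and Hoxa-flox counts 2. The sets were read from these same libraries, so a fit with 1 set leaves the spread between the sets out of its p-values. The counts by set are therefore a description and not a test. Leaving out Hoxa-flox 3 alone gave 26 members called with the control virus, where 31.7% of all symbols were called. Leaving out Hoxa-del 2 alone gave a median of 0.39 with Cre. Some members stood well above WT in both sets. Under the control virus Pfkm, Pgam1 and Ldha stood 1.94, 1.57 and 1.34 above WT-GFP in the first set and 2.06, 1.38 and 1.11 in the second, which is 1 library. Under Cre they stood 2.39, 1.48 and 1.60 above WT-Cre in the first set, also 1 library, and 1.76, 1.05 and 0.96 in the second. The first set was thus the further from WT under both viruses for Pgam1 and Ldha, and under Cre for Pfkm. Others differed in sign under the control virus: Vegfa stood at 0.56 in the first set and -1.80 in the second, Ndrg1 at 0.90 and -0.67 and Slc2a3 at 1.48 and -0.63.

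**Figure D5:**
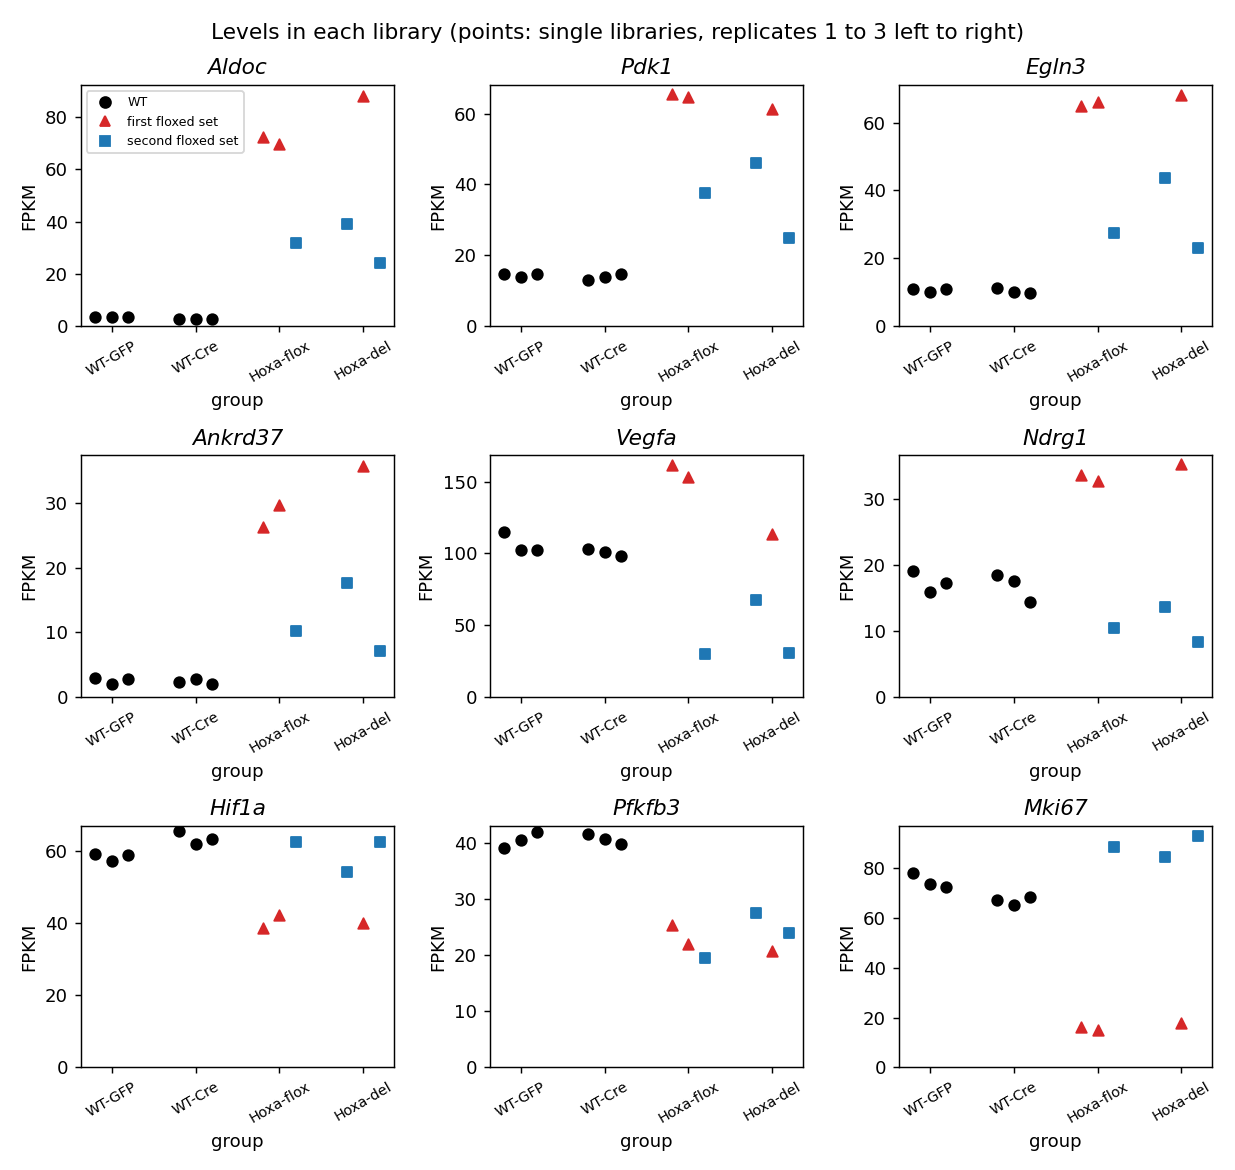
FPKM (y axis, from 0) of 8 genes of the list and of Mki67 in single libraries by group (x axis), with WT in black, the first floxed set as red triangles and the second as blue squares. Aldoc and Ankrd37 exceed WT in both sets, Vegfa and Ndrg1 lie above or within WT in the first set and below it in the second, and Mki67 is lowest in the first set.

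The proliferation marker Mki67 moved with the sets too. It was 16.4 and 14.9 FPKM in Hoxa-flox 1 and 2 and 17.8 in Hoxa-del 2, against 88.5, 84.6 and 93.2 in the second set and 65.1 to 78.2 in WT. Its part in the results was not tested. Within the second set, Hoxa-del 1 exceeded both Hoxa-flox 3 and Hoxa-del 3 in 23 of the 35 members and lay below both in 4. Of all symbols 35.2% lay above both and 42.4% below both. It lay nearer to the mean of the first set than to that of the other 2 libraries for 12 members and for 33.7% of all symbols, which are similar shares. Its median difference from these 2 was 0.27 over the members and -0.04 over all symbols. Kdm3a, at 17.1 FPKM in Hoxa-del 1, was above the first set (14.2 to 17), while Hoxa-flox 3 and Hoxa-del 3 were at 9.84 and 9.12.

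Genes of linked pathways, from lists drawn up beside the members, moved less uniformly. Over all symbols 13.3% were higher and 13.5% lower in Hoxa-flox than in WT-GFP, and several of these lists lay near those shares. Of 18 other glycolysis genes 2 rose and 2 fell in Hoxa-flox against WT-GFP by the same test. Minpp1, an inositol phosphate phosphatase that also acts on bisphosphoglycerate, rose by 1.67, and Bsg, the chaperone of lactate transporters, by 1.04. Ldhb, the lactate dehydrogenase subunit that favors pyruvate, fell by 1.13 (5.65 ± 0.824 to 2.07 ± 0.602 FPKM), opposite to Ldha. Adpgk, an ADP-dependent glucokinase, fell by 0.95. Of 13 genes of pyruvate entry into mitochondria 2 rose and 2 fell. Pdk3, another kinase of pyruvate dehydrogenase, rose by 1.11, and Mpc1, a subunit of the mitochondrial pyruvate carrier, fell by 0.72 (20.2 ± 1.73 to 12 ± 2.22 FPKM). Of 10 genes of the pentose phosphate pathway, which branches off at glucose 6-phosphate, 0 rose and 3 fell. Pgd, its second dehydrogenase, fell by 1.28, from 574 ± 38.9 to 243 ± 67.8 FPKM. Rpe fell by 1.24 and Rpia by 0.75.

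Of 11 regulators of the HIF pathway 2 rose and 1 fell with the control virus. Hif1an, the asparagine hydroxylase that blocks HIF activity, rose by 0.77 (4.65 ± 0.415 to 8.62 ± 0.730 FPKM). Tceb2, which encodes elongin B of the VHL ubiquitin ligase, rose by 0.74, and Hif3a, an often inhibitory HIF subunit, fell by 1.30. Of 21 other hypoxia-induced genes 7 rose and 4 fell. Mif, a cytokine, rose by 1.90 (95.2 ± 1.86 to 365 ± 78.8 FPKM). Hmox1, heme oxygenase, fell by 2.48 (140 ± 11.3 to 24.6 ± 5.76 FPKM), and Bhlhe41, a transcriptional repressor, fell by 1.83. Of 10 genes of the glycogen and hexosamine branches 2 rose and 1 fell: Gys1, glycogen synthase, by 1.44, Gyg, glycogenin, by 0.87, and Uap1, an enzyme of UDP-GlcNAc synthesis, by -0.77. Of the 8 proliferation markers 0 passed with the control virus, and 1, the replication helicase subunit Mcm2, rose with Cre. The medians of these lists ran from -0.27 (pentose phosphate pathway) to 0.15 (other glycolysis genes), against 1.04 for the members. With Cre, the numbers higher and lower were 3 and 2 of 18 (other glycolysis), 2 and 2 of 13 (pyruvate entry), 0 and 2 of 10 (pentose phosphate), 2 and 1 of 11 (HIF regulators), 6 and 3 of 21 (hypoxia-induced) and 2 and 2 of 10 (glycogen and hexosamine). Of all symbols 13% were higher and 14.2% lower in Hoxa-del than in WT-Cre.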

How the data were processed

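Total RNA of 12 samples was isolated with TRIzol, depleted of ribosomal RNA, made into stranded libraries and sequenced on a NextSeq instrument, per the labels' protocols. The submitters' processing notes name the builds mm10 and GRCm38 and the tools Cuffdiff 2.2.2.20150701, Cufflinks and STAR, giving none of them a role or order. The values deposited by the authors were taken as FPKM, the unit Cufflinks gives, because the header names none. How libraries were scaled, and with which annotation and strand fragments were counted, was not given in the sources used here. Depth was estimated from ratios of low values. Only 42.4% to 52.3% of them lay on whole-number steps within 0.02 (log2), so reads were not recovered and no count test was run.

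All 12 columns matched a sample by title, which left 0 unmapped. limma 3.58.1 (R 4.3.3, trend on the mean) was fitted to log2(FPKM + 1) of the 13169 symbols whose mean reached 1 FPKM. All 4 groups of 3 shared the fit, and p-values were adjusted by Benjamini-Hochberg with a threshold of 0.05. Changes of low genes are understated on this scale. The script was tested on simulated data. The members, the lists of related genes and markers and the library sets were chosen with earlier results of these data known. Every member is named. Values of every library are printed for the 6 members past the threshold with the largest change in a comparison (or the 3 with the smallest p), the 6 with the largest difference between the sets, Hif1a and the isoform genes of the hexokinase, phosphofructokinase and enolase steps (for Egln1, Pgam1 and Gpi1 some groups as a range). Up to 3 genes of each related list are named. Ldha, Pfkfb3, Pfkfb4 and Kdm3a were given by library after their values were seen. Coordinates are those of GENCODE M21 (GRCm38), matched by symbol. Python 3.11.15 with pandas 2.3.3 and numpy 2.4.6 made the tables. Alternatives were a pseudocount of 0.1, no filter, equal upper quartiles, array weights, only the groups compared, summed rows of a repeated symbol, a replicate block and each library left out.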

Additional observations from a re-analysis of the deposited data

How the results depend on the processing

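Called members differed from the 19 and 17 reported above under array weights (33 with the control virus, and 28 in Hoxa-del against Hoxa-flox and 18 for the interaction, in each of which the reported count was 0) and without the second floxed set (32 and 30). The array weights were fitted with convergence warnings. Counts also changed under other settings, among them the replicate block and the single libraries left out below. Under the control virus the median was 0.35 without the first set and 1.35 without the second, against 1.04 with all libraries. For Hoxa-del against WT-Cre it was 0.39 without the first set and 1.38 without the second, against 0.77 with all libraries. The interaction median was -0.59 under array weights. Fits by set were added after seeing the data, with sets read from these same libraries, so their counts are not a test. With each library left out in turn, the members called ran from 17 to 26 with the control virus and from 15 to 21 with Cre. Elsewhere 0 were called. The 26 came without Hoxa-flox 3, where 31.7% of all symbols were called. Such shares are not given for the other libraries left out, so the ranges cannot be read as particular to the members. The medians then ran from 0.85 to 1.35, from 0.39 to 1.03, from -0.57 to -0.003 (Hoxa-del against Hoxa-flox), from -0.09 to -0.04 (WT-Cre against WT-GFP) and from -0.44 to 0.05 (interaction). In these fits a group of fewer libraries shares the spread of the others.

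With the replicate number as a replicate block, 22 members were called with the control virus, 17 with Cre (of all symbols 3593 and 3635) and 0 in each other comparison. Whether the numbers pair the samples cannot be told from these values. Correlations of same-numbered deviations were -0.301, 0.600 and 0.721 between Hoxa-flox and Hoxa-del. Between WT-GFP and WT-Cre they were 0.0110, -0.00535 and 0.0897. Over all alternatives, 275 values of single members kept their call with the control virus and 10 lost it; with Cre 247 kept it and 8 lost it. None of these values changed sign. The calls lost are those of P4ha1, P4ha2, Egln1 and Pfkfb4 given above. With 3 libraries a group and no counts, the precision of low members such as P4ha2 is limited.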
